A study of Arabidopsis thaliana with 12 samples.

Results

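Plastid ribosomal proteins build the ribosome that translates the genes kept in the chloroplast. That ribosome is of bacterial type, with a large and a small subunit, and its proteins are encoded partly by the plastid genome and partly by nuclear genes whose products are imported. Its main products in leaves are core subunits of the photosystems, of the other thylakoid complexes and of Rubisco. In the work reported here 5 nuclear genes of this kind were followed: AT4G01310 (protein L5), AT3G54210 (L17) and AT5G65220 (L29) of the large subunit, and AT1G64510 (S6) and AT3G13120 (S10) of the small subunit. Each was taken through the array's annotation from the probe that lists it as its only gene, which gave 5 genes of 691 that have such a probe. The annotation gives locus identifiers for these genes and no protein names, so names and subunits are given as background knowledge of the Arabidopsis genome.

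The array was read in 6 samples of plants treated with 50 µM paraquat and in 6 samples of plants given water, all wild type of ecotype Landsberg. Paraquat, a bipyridinium herbicide, is reduced by photosystem I in illuminated leaves and hands the electrons on to oxygen. Both groups had passed through 12 h of darkness and were harvested after 30 min of renewed light. The labels give plants as the material and no cell type, age or number of plants per sample. They do not say whether the numbers 1 to 6 in a group mark separate plants or the same material read again. The p-values below therefore cover the spread among these samples alone, and that spread may be technical.

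Values are array intensities in arbitrary units, scaled before deposit to a level that is not stated, and 108 to 148 of 3439 probes stood at exactly 0 in a sample. Log2 fold changes are paraquat minus water after quantile normalization, which sets every probe against the bulk of the probes, and a change is called at an adjusted p under 0.05 (limma, Benjamini-Hochberg over all probes). The comparison called 52.5% of all probes, 24.0% as higher and 28.5% as lower under paraquat. Over probes without zeros, sample numbers 1 and 2 stood apart from numbers 3 to 6: they correlated with these at 0.876 to 0.892 under paraquat and 0.756 to 0.797 under water, while numbers 3 to 6 correlated among themselves at 0.912 or more under paraquat and 0.841 or more under water. The fits without numbers 1 and 2, and with these alone, were chosen after seeing the data. Fold changes also rose and fell in a cycle along the probe numbers. The cycle was divided into 24 steps of 12 numbers, with step medians from -0.77 to 0.61, and values are given below both without and with centring each sample on the medians of its steps. Of the green tissue markers, LHB1B2, a light-harvesting protein of photosystem II, had a probe of its own. It was read at 9.26 to 13.1 under paraquat and 15.4 to 23.3 under water. After centring by step its difference did not pass (log2 -0.20, limma adjusted p = 0.360). No root or pollen marker had a probe listing it alone, and the presence of those tissues was not tested.

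Under paraquat the transcript of L5 rose 2.08-fold, and those of L17, S6 and S10 fell to 0.535, 0.557 and 0.513 of their levels under water (n = 6 samples each, errors below). The probe of L29 stood at 0 in 5 samples of each group and did not pass. The 2 small subunit genes thus moved the same way, and the 2 large subunit genes with a signal moved in opposite directions. Of the 5 genes 1 rose, 3 fell and 1 did not pass, beside the 24.0% and 28.5% of all probes that were called higher and lower. With 52.5% of all probes called, nothing particular to these genes is read from 4 calls among 5. The median log2 fold change was -0.87 over the 4 genes without zeros, against -0.04 over all probes. That median does not show the rise of L5, and no shared shift of the genes is read from it. In bulk tissue, less RNA per cell and fewer cells of a type cannot be told apart.

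**Figure D1:**
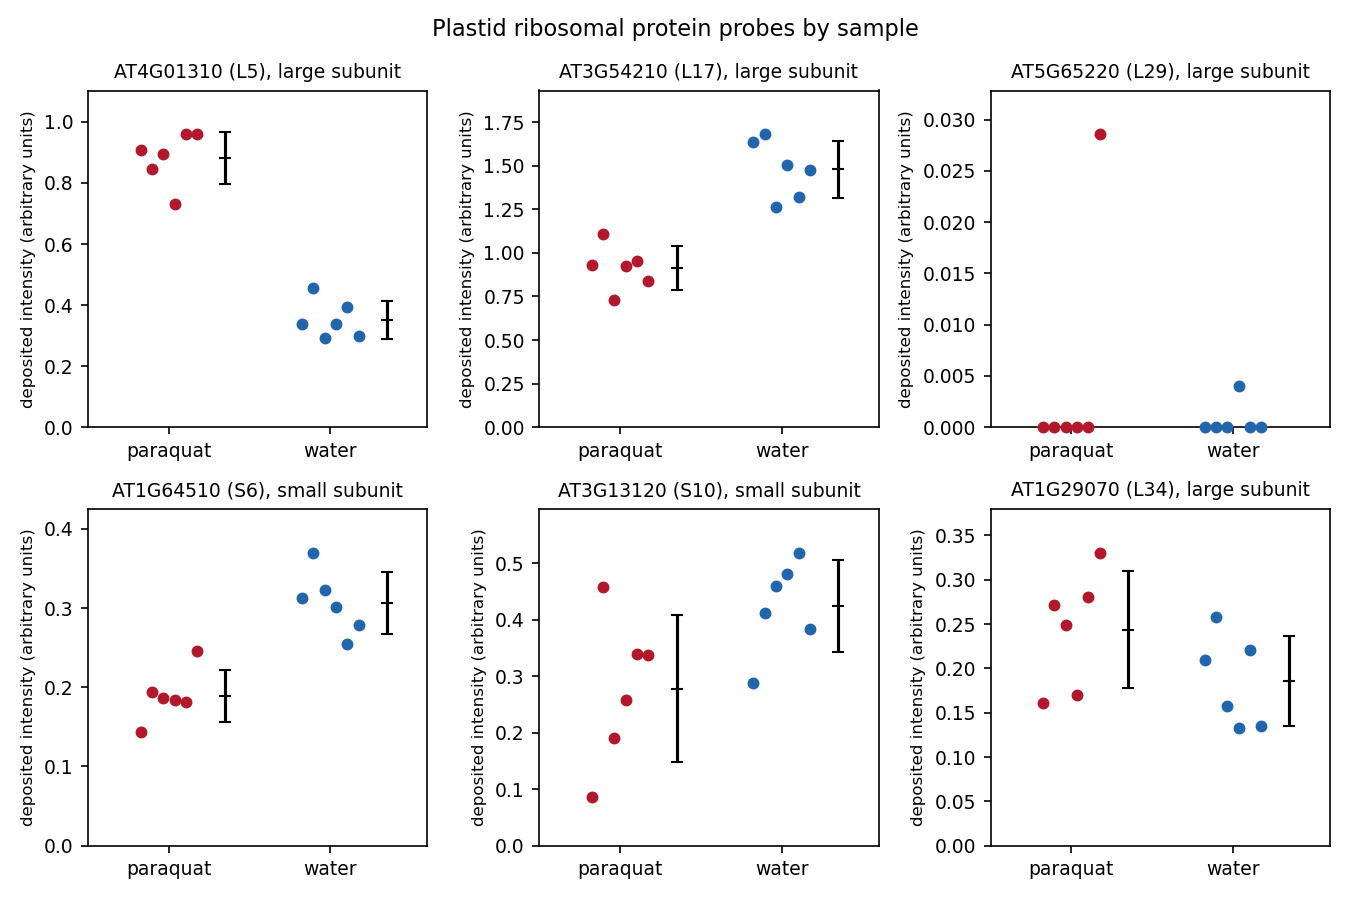
Deposited intensity (arbitrary units, linear axes from 0) of the probes of the 5 genes and of L34, with a point for each of the 6 paraquat samples (red) and 6 water samples (blue), ordered by sample number, and the mean ± SD beside them except for L29. The groups stand apart for L5, L17 and S6 and overlap for S10 and L34, and L29 is at 0 in 5 samples of each group.

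AT4G01310 encodes L5, which in the ribosome of Escherichia coli binds the 5S ribosomal RNA in the large subunit. Its deposited intensity ran from 0.731 to 0.959 with a median of 0.900 under paraquat, and from 0.292 to 0.455 with a median of 0.338 under water. The lowest paraquat sample lay above the highest water sample, so the groups did not overlap, as was the case in this direction for 20.8% of all probes. The means were 0.883 ± 0.086 under paraquat and 0.352 ± 0.062 under water (SD, n = 6 each), a ratio of 2.50. After quantile normalization the gene was 2.08-fold higher (log2 1.06 ± 0.15, SE, 95% interval 0.74 to 1.38, limma adjusted p = 8.56e-05), and it was higher in 6 of 6 pairs of equal sample number. The exact two-sided permutation test over the 12 samples gave p = 0.00216, the smallest it can give. Here and for S10 that test took all 12 samples as exchangeable and ignored their numbers, although numbers 1 and 2 stood apart. Equal-numbered samples differed by between 0.45 for number 2 and 1.46 for number 3 on the log2 scale. Without numbers 1 and 2 the log2 fold change was 1.22 (limma adjusted p = 0.000653). With these numbers alone it was 0.73, and L5 did not pass (limma adjusted p = 0.0791).

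AT3G54210 encodes L17, which in Escherichia coli lies near the opening of the tunnel through which the new polypeptide leaves the large subunit. Under paraquat its intensity ran from 0.732 to 1.11 with a median of 0.927, and under water from 1.26 to 1.68 with a median of 1.49. Again the groups did not overlap, a state in which 14.6% of all probes were found in this direction. The means were 0.914 ± 0.126 under paraquat and 1.48 ± 0.16 under water (SD, n = 6 each). L17 fell by 0.90 ± 0.11 on the log2 scale (SE, limma adjusted p = 3.18e-05), and was lower in 6 of 6 numbered pairs. Its samples were the tightest of the 5 genes, with a pooled SD within groups of 0.176 on the log2 scale, against a median of 0.317 over the 3186 probes without zeros. Without numbers 1 and 2 its log2 fold change was -0.86 (limma adjusted p = 0.000880).

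AT5G65220 encodes L29, which in Escherichia coli also sits at the tunnel opening. The probe read exactly 0 in 5 of the 6 samples under paraquat and in 5 of the 6 under water. The exceptions were paraquat sample 6 at 0.0285 and water sample 4 at 0.00402, both below 0.118, the 5th percentile of values above 0. An exact 0 can stand for a signal lost in background correction, so nothing is said of the transcript's level, and no fold change is read from the probe. The fit called no difference (limma adjusted p = 0.756). L29 was the only 1 of the 5 probes with any zero. Among all 692 probes with 1 gene, 56 had a zero and 22 were at 0 in 10 or more of the 12 samples, as L29 was.

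AT1G64510 encodes S6, which in Escherichia coli pairs with S18 on the platform of the small subunit. Its intensity lay between 0.144 and 0.245 with a median of 0.185 under paraquat, and between 0.255 and 0.370 with a median of 0.307 under water. The groups were separate, but by a narrow gap between the highest paraquat sample and the lowest water sample. The means were 0.189 ± 0.033 under paraquat and 0.306 ± 0.039 under water (SD, n = 6 each), and no sample was under the 5th percentile. S6 fell by 0.84 ± 0.13 on the log2 scale (SE, limma adjusted p = 0.000224) and was lower in 6 of 6 numbered pairs. The differences of the pairs numbered 1 and 2 were -1.35 and -1.23, and those of numbers 3 to 6 ran from -0.80 to -0.38. Without numbers 1 and 2 the log2 fold change was -0.62 (limma adjusted p = 0.00183).

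AT3G13120 encodes S10, a protein of the small subunit's head that in Escherichia coli also acts as a transcription antitermination factor. The paraquat samples numbered 1 to 6 had 0.0862, 0.457, 0.190, 0.257, 0.340 and 0.337, and the water samples 0.288, 0.412, 0.459, 0.482, 0.518 and 0.384. The groups overlapped: paraquat sample 2 was above 3 of the water samples, and paraquat sample 1 was the only reading under the 5th percentile. The means were 0.278 ± 0.130 under paraquat and 0.424 ± 0.082 under water (SD, n = 6 each). S10 fell by 0.96 ± 0.32 on the log2 scale (SE, 95% interval -1.65 to -0.27, limma adjusted p = 0.0230), and the exact two-sided permutation test gave p = 0.00649. After normalization it was lower in 6 of 6 numbered pairs, though in deposited units in 5 of 6. Its pooled SD of 0.576 was the widest of the 4 genes without zeros and above that of 85.5% of the probes without zeros.

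The call of S10 depended on the scaling. It did not pass with the values as deposited (log2 -0.76, limma adjusted p = 0.0847) or with cyclic loess (log2 -0.89, limma adjusted p = 0.0526). With the sample number as a block, which removes what equal-numbered samples share, it passed (limma adjusted p = 0.00778). It also passed without numbers 1 and 2 (log2 -0.93, limma adjusted p = 0.00536), but not with these alone (log2 -1.07, limma adjusted p = 0.420). Both of these settings were chosen after seeing the data. Without paraquat sample 1, its dimmest reading, the log2 fold change was -0.68 (limma adjusted p = 0.0169).

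**Figure D2:**
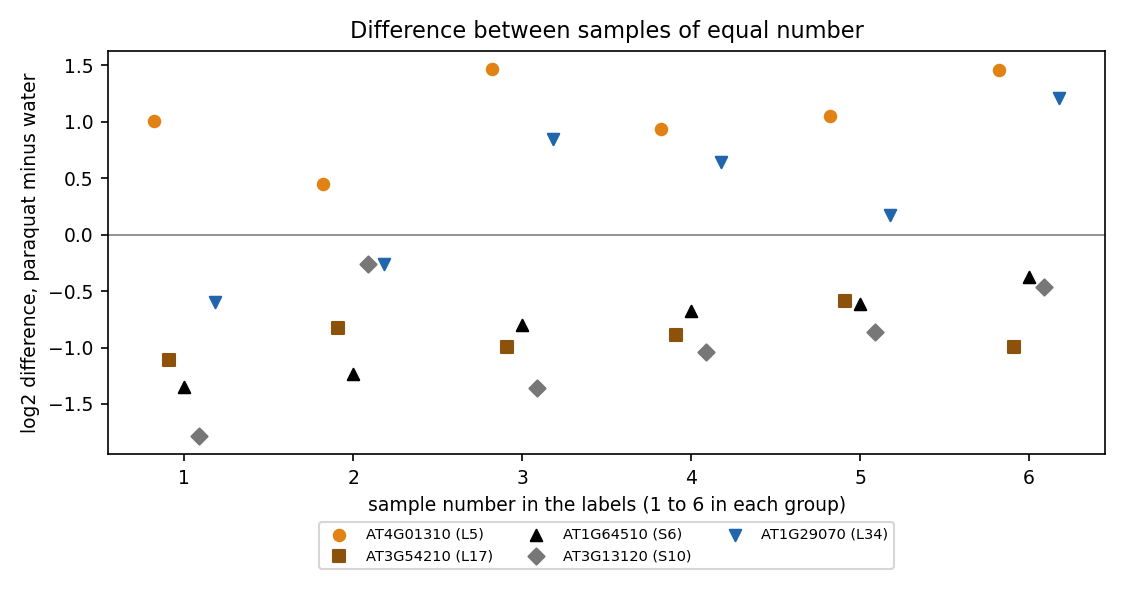
Log2 difference, paraquat minus water after quantile normalization, between samples of equal number (x axis, 1 to 6) for L5, L17, S6, S10 and L34. L5 is above 0 and L17, S6 and S10 are below 0 at all 6 numbers, while L34 is above 0 at 4 and below 0 at 2.

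These genes lie at different steps of the cycle along the probe numbers. L5 lies at a step of the probe number where the median log2 fold change was -0.36 and 19.4% of the other 144 probes were called higher. Its own rise exceeded the fold change of 95.8% of those probes. After centring by step L5 stood at 1.32 ± 0.13 (SE, limma adjusted p = 9.96e-06), and its groups did not overlap in the centred values, a state of 12.9% of all probes in this direction.

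Both small subunit probes lie at steps where most called probes were higher under paraquat, with medians of 0.61 for S6 and 0.39 for S10. Against their steps they were among the lowest: 6% of the other 150 probes had a lower fold change than S6, and 5% of the other 140 a lower one than S10. After centring S6 was at -1.52 ± 0.14 (SE, limma adjusted p = 7.13e-06) and S10 at -1.48 ± 0.30 (SE, limma adjusted p = 0.00174). The centred values of the 2 groups did not overlap for S6 or for S10, as held in this direction for 17.0% of all probes.

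L17 lies at a step with a median of -0.44, and 21.8% of the other 142 probes there had a lower fold change. After centring its log2 fold change was -0.43 ± 0.16 (SE, limma adjusted p = 0.0414), and the groups overlapped, although all 6 numbered pairs were still lower. When neighbouring sample numbers were also averaged, with their pair as a block, L17 did not pass (limma adjusted p = 0.107). L5, S6 and S10 did, each at a limma adjusted p of 0.0214 or 0.0216. In that strictest fit 1 of the 5 genes was higher and 2 were lower, beside 12.2% and 14.8% of all probes. With centring alone 1 was higher and 3 were lower, beside 21.2% and 26.2%.

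**Figure D3:**
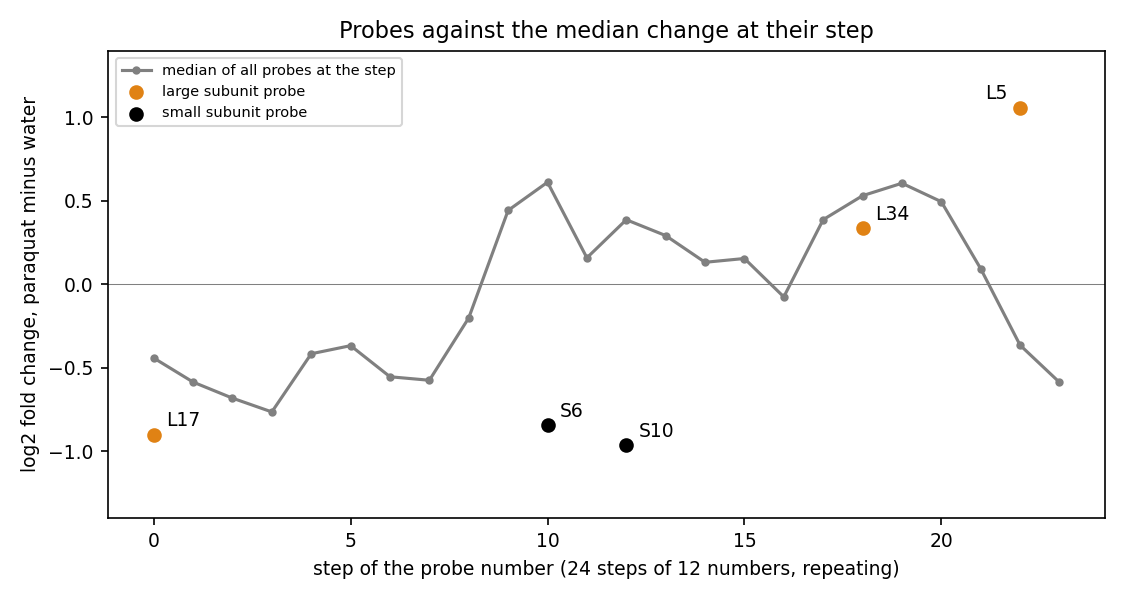
Log2 fold change (paraquat minus water, quantile normalized) against the step of the probe number, with the median of all probes at each step as a grey line and the large (orange) and small (black) subunit probes as points. L5 at 1.06 lies above a step median of -0.36, S6 and S10 lie below step medians of 0.61 and 0.39, and L17 lies nearer to its step median of -0.44.

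**Figure D4:**
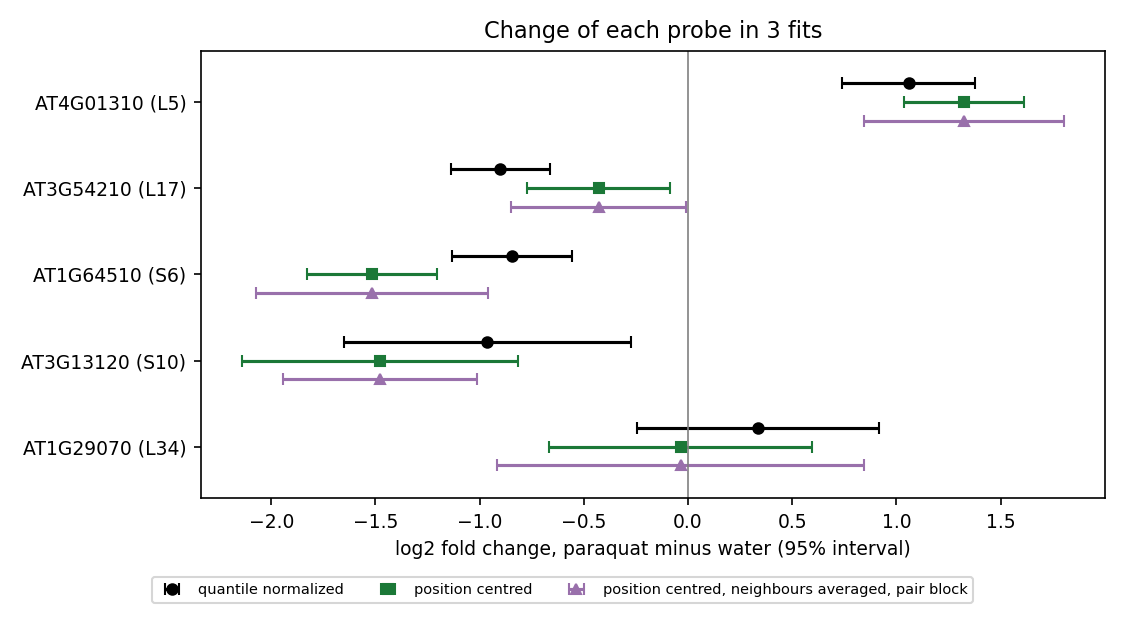
Log2 fold change, paraquat minus water, with 95% intervals from limma, not adjusted over probes, for 5 probes in 3 fits: quantile normalized (black), also centred by step (green), and with a further averaging of neighbouring numbers, their pair kept as a block (purple). L5 lies above 0 and S6 and S10 below 0 in each fit, L17 moves from -0.90 to -0.43 with centring, and the intervals of L34 span 0.

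Beyond these genes the nuclear part of the plastid ribosome was represented by 1 more probe of its own. Of 41 nuclear genes listed for the complex 6 had such a probe, the 5 above and AT1G29070 (L34), a small protein of the large subunit. L34 was read at 0.161 to 0.330 with a median of 0.260 under paraquat, and at 0.133 to 0.258 with a median of 0.183 under water. The groups overlapped widely, and L34 did not pass (log2 0.34 ± 0.27, SE, 95% interval -0.25 to 0.92, limma adjusted p = 0.316). It was higher in 4 of 6 numbered pairs and lower in numbers 1 and 2. Among the 6 genes, then, 1 of the 4 of the large subunit rose and 1 fell, and both of the small subunit fell. None of 15 plastid translation factors or 10 ribosome assembly genes had a probe listing it alone. Nor did the listed genes of plastid transcription (8), the cytosolic ribosome (16) or the mitochondrial ribosome (5). The 21 listed ribosomal protein genes of the plastid genome were missing from the gene table used for this lookup. Whether the array has probes for them was therefore not tested.

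The genes whose values ran most alike over the 12 samples were sought among 635 other probes with 1 gene and no zero, by Pearson's r of log2 values. These r describe 12 samples that share the 2 groups and their sample numbers, and the r of deviations from the group means is given after each. For L5 they were AT5G55580 (0.945, deviations 0.578) and AT1G30700 (0.933, deviations 0.593). For L17 they were AT1G54500 (0.972, deviations 0.719) and AT4G24910 (0.970, deviations 0.726). S6 ran most like CUTA (0.948, deviations 0.717) and AT5G02710 (0.948, deviations 0.694). S10 ran most like TPP2, a large peptidase (0.843, deviations 0.814), and AT4G37230 (0.83, deviations 0.668). No plastid ribosomal gene was among these nearest probes of another. Only 2 of 635 probes were kept for each gene, so no lack of a shared pattern is read from this. The values were not centred by step for these r, and a part of the cycle in them was not tested. AT1G30700 lies at the same step as L5, and the other genes named lie at other steps than the gene they were matched to.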

How the data were processed

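The deposited values are array intensities, 1 per probe and sample. Their scanning, correction and scaling are not given in the sources used. Medians of the columns were 0.563 to 0.635 under paraquat and 0.443 to 0.491 under water. Each 0 was replaced by its column's smallest positive value, columns were quantile normalized and log2 was taken, so a zero stands at -10.36. All 3439 probes were fitted with limma 3.58.1 in R 4.3.3 over 12 samples without a block, two-sided. The code of the fit was run on simulated data with independent noise. These had no cycle along the probe numbers and no shared deviation of equal-numbered samples, so they do not test the fit under those conditions. Figures were drawn with matplotlib 3.10.9.

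The deviations of equal-numbered samples from their group means correlated at r from 0.337 to 0.505 over 3186 probes. No such r is given for samples of unequal number. Whether the shared deviation is particular to equal numbers was therefore not tested. The labels state no pairing of samples by number. Alternatives were other scalings, other treatments of zeros, a filter on dim probes, the replicate block and averaged neighbouring numbers. Others were centring by step, samples left out and the exact permutation test. Named genes are the 5 members, listed genes with a probe of their own on the plastid ribosome and translation lists, up to 2 on other lists, and the 2 nearest probes by r. Members and lists were chosen with earlier results of these data known. The number of arrays limits the precision. No coordinates are given because the array names no build, and promoter motifs were not searched because no sequence was used here.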

Additional observations from a re-analysis of the deposited data

Results flagged for a closer look

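In both groups 1 sample of the L29 probe (AT5G65220) lay far from the other 5, which were all at 0. Paraquat sample 6 was at 0.0285 and water sample 4 at 0.00402, in deposited units. With 5 of 6 readings at the same value, any reading above 0 is far from the rest. Of the 12 groups of 6 samples examined, over the 5 genes and L34, these 2 stood out. Chance gives about 1 in 20 groups, or 0.6, but that rate does not apply to groups with 5 readings tied at 0.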

How the results depend on the processing

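S6 kept its direction and its call in 25 of 25 alternatives, and L5, L17 and S10 kept their direction in all 25. With zeros left missing, dim probes left out, the replicate block, averaged neighbours or the permutation test, their log2 fold changes repeated the main ones. Those alternatives therefore tested the call and not the direction. Step centring with averaged neighbours and their pair as a block likewise repeated the log2 fold changes of step centring alone. L17 lost its call with step centring, averaged neighbours and their pair as a block (-0.43, adjusted p = 0.107). S10 lost it as deposited (-0.76) and with cyclic loess (-0.89). With numbers 1 and 2 alone, L5 (0.73, adjusted p = 0.0791) and S10 (-1.07, adjusted p = 0.420) lost it. That setting and the fit without numbers 1 and 2 were chosen after seeing the data. L29 stood at 2.51 with zeros left missing, where 1 sample per group remains. No L29 value in this section is read as a change, because each rests on filled zeros or on 1 sample per group. L34 turned with step centring (-0.036, the same with averaging and the block) and with numbers 1 and 2 alone (-0.44). Leaving out 1 sample at a time gave 0.99 to 1.16 for L5, -0.96 to -0.85 for L17, -0.91 to -0.75 for S6, -1.10 to -0.68 for S10, 0.20 to 0.48 for L34 and -0.58 to 0.94 for L29, which turned without paraquat sample 6. None of these ended a call, though S10 came close to losing it, with a limma adjusted p of 0.0491 without paraquat sample 3.

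Beside the 1805 probes called, the fits on 3 columns per group called 1160 with neighbours averaged and 926 with step centring, averaging and the pair block. Each count is a total over all probes in its own fit, not a part of the 1805. The replicate block gave 1964 and changed no call among the 5 genes. The split of higher against lower calls was 826 to 979, 1111 to 738 as deposited and 716 to 1115 with median centring. Over all probes the median log2 fold change was 0.19 as deposited and -0.16 with median centring. L5 was at 1.34 and 0.99 in these settings, L17 at -0.70 and -1.04, S6 at -0.70 and -1.05. Dim signals limit L29 and paraquat sample 1 of S10.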

Other observations

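On the lists of plastid translation factors and plastid ribosome assembly, 5 probes list a gene of the list together with other genes, so that no gene is named from them. Of these 3 were higher and 2 lower under paraquat (limma, adjusted p under 0.05), with log2 fold changes from -1.31 to 2.46. After centring by step 2 were higher and 1 was lower. LHB1B2, the green tissue marker, fell by 0.66 ± 0.13 on the log2 scale (SE, n = 6 each, limma adjusted p = 0.00141) and was at -0.20 after centring (limma adjusted p = 0.360).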
